A study of Mus musculus with 10 samples.

Results

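In mouse embryonic stem cells, most marked promoters of well-separated protein-coding genes on chromosomes 1 to 19 carried a single H3K4me3 peak. At 434 of these genes the mark was instead broken into 3 or more separate peaks around the 5' end. These fragmented promoters were chosen from the measured H3K4me3 peak list. A gene qualified when it was protein-coding, lay on chromosomes 1 to 19, had at least 3 H3K4me3 peaks sharing 1 bp or more with the 5 kb either side of its 5' end (called the window), and had no transcript start of another protein-coding gene within 10 kb. Of 20807 protein-coding genes, 13448 met the distance condition and are called isolated here. The 434 fragmented promoters were 3.23% of these and 4.92% of the 8816 isolated genes with any H3K4me3 peak in the window. Because the rule used the number of H3K4me3 peaks, the number, width and strength of those peaks are given as a description. ATAC-seq peaks and genome sequence were not used by the rule.

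The cells were F123, an embryonic stem cell line from an F1 cross of Mus musculus castaneus and S129/SvJae mice. They were kept on irradiated CF1 embryonic fibroblasts and passaged once without feeders before harvest, with no treatment and no second genotype. H3K4me3 ChIP-seq and ATAC-seq were each done on 2 biological replicates, and 1 deposited peak list stood for both replicates of each assay. The lists held 33487 H3K4me3 peaks and 179109 ATAC-seq peaks, with no read counts, so the depth is unknown and no spread between replicates could be computed. Shares below carry 95% Wilson intervals and medians carry 95% binomial order-statistic intervals. Both cover counting error only, over genes or, for shares of peaks and gaps, over peaks and gaps as if independent, although several come from each gene. No p-value is given. Of 10 stem cell markers, 9 had an H3K4me3 peak within 1 kb of the 5' end and all 10 had an ATAC-seq peak within 500 bp of it. Of 10 fibroblast markers, 6 had an H3K4me3 peak, with a median fold enrichment of 16.2 against 26.4 for the stem cell markers, while Col3a1, Postn, Lum and Fap had neither kind of peak. The part of remaining feeder cells in the peaks described below was not tested.

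H3K4me3 is trimethylation of lysine on the tail of histone H3 and is the usual mark of gene starts. In mammals it follows CpG islands, stretches rich in the dinucleotide CG, because CFP1 and the MLL methyltransferases bring the mark to unmethylated CG. In stem cells the starts of many developmental regulators carry H3K4me3 together with the Polycomb mark H3K27me3, a state named bivalent, and these genes are largely silent there. H3K27me3 and RNA were not analysed here. ATAC-seq reports where a transposase can reach the DNA and so marks open chromatin.

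The sequences below, from 3 of the genes with 6 H3K4me3 peaks, are shown because the contrast between peak and gap in CG content recurred at most fragmented promoters. For each gene the first line is the 120 bases at the summit of the strongest H3K4me3 peak, and the second is the 120 bases at the middle of the widest gap between peaks. For Pax3 the first line was moved 214 bp from the summit to the nearest stretch without an annotated untranslated base. Each runs 5′ to 3′ on the strand of the gene, in the mm10 reference rather than the alleles of F123, and capitals mark every CG.
Tfap2a peak: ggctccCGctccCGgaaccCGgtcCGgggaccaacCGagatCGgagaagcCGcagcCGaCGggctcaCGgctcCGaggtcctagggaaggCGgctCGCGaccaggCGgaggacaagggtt
Tfap2a gap: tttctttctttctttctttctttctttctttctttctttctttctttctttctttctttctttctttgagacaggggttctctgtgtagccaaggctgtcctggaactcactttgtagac
Pax3 peak: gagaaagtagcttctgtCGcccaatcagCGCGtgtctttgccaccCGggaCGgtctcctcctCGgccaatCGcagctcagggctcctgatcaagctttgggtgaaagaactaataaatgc
Pax3 gap: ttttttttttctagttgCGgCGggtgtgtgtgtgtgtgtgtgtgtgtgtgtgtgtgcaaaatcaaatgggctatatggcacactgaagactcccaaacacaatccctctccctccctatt
Hoxc12 peak: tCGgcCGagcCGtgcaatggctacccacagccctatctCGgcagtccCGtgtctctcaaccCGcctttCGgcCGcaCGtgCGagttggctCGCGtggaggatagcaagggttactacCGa
Hoxc12 gap: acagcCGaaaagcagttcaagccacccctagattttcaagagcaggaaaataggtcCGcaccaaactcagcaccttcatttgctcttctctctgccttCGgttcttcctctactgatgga

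The Tfap2a pair lay on the minus strand at chr13:40731442-40731561, within the gene and mostly exonic, and at chr13:40740510-40740629, upstream of the gene. The peak stretch held 15 CG and the gap stretch 0, much of it a repeat of tttc. For Pax3, the stretches at chr1:78197135-78197254, just upstream of the gene, and chr1:78194468-78194587, intronic, both on the minus strand, held 7 and 2 CG. On the plus strand at Hoxc12, the exonic stretch chr15:102937021-102937140 held 13 CG and chr15:102935947-102936066, upstream, held 3.

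A map of the peaks around these starts shows how the mark was divided. Tfap2a encodes AP-2alpha, a regulator of neural crest and surface ectoderm, and had 6 H3K4me3 peaks with a summed width of 10091 bp. From upstream to downstream their fold enrichments were 3.87, 3.42, 4.01, 7.07, 6.76 and 18.6. The peak across the annotated 5' end was therefore not the strongest, and the strongest lay 2884 to 7905 bp downstream, over another start of the same gene. Pax3, a regulator of neural crest and muscle progenitors, also had 6 peaks, with fold enrichments of 5.63, 4.07, 2.96, 16.04, 2.37 and 2.85. Here the peak across the 5' end stood out, and the other 5 lay on both sides of it. Hoxc12, a posterior Hox gene, had 6 weak peaks with fold enrichments of 6.22, 2.73, 5.17, 8.11, 2.61 and 5.57. The only gene with 6 peaks that was not a developmental transcription factor was Eml2, a microtubule-associated protein, with values of 4.59, 4.69, 13.1, 4.59, 9.92 and 17.4.

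**Figure D1:**
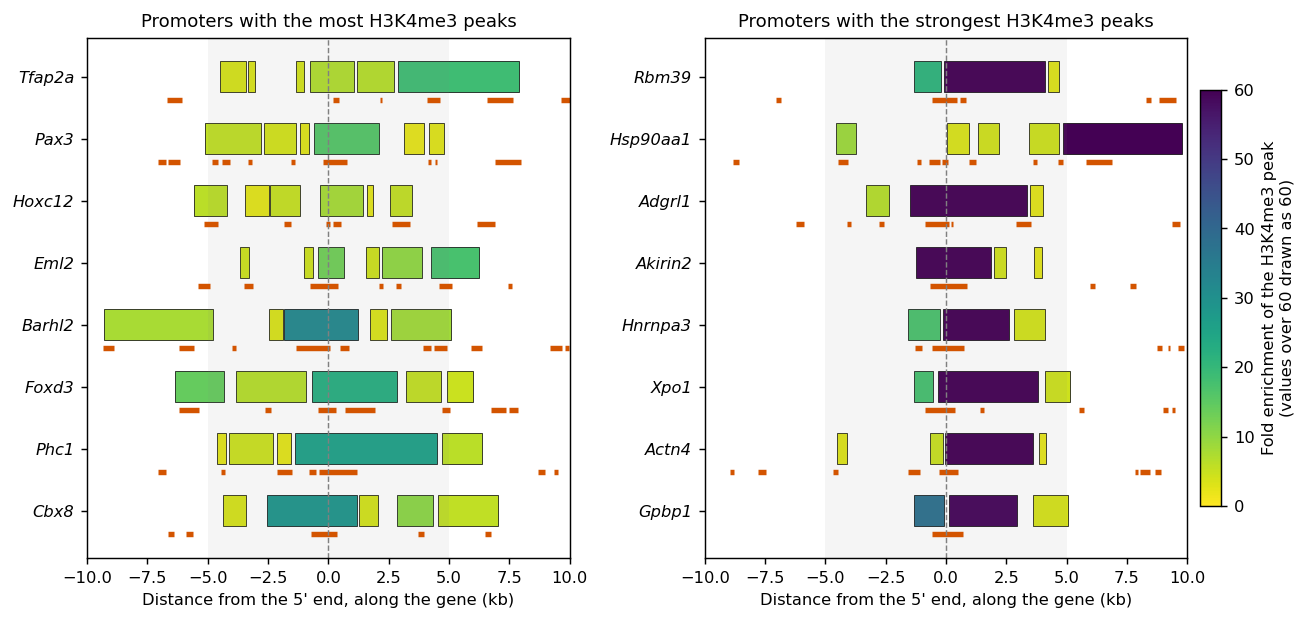
H3K4me3 peaks (boxes, coloured by fold enrichment) and ATAC-seq peaks (orange bars under each gene) by distance from the 5' end in kb, along the gene, for 8 of the 10 promoters with the most peaks (left) and the 8 with the strongest peak (right); grey shading marks the window and the dashed line the 5' end. On the left the strongest peak of each gene runs from 8.11 at Hoxc12 to 32.0 at Barhl2, with weaker peaks beside it. On the right 1 dark peak with a fold enrichment of at least 59.1 has weaker neighbours.

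Among all 434 fragmented promoters, 316 had 3 peaks, 90 had 4, 23 had 5 and 5 had 6. The median summed width was 4592.5 bp (4363 to 4803), with a range from 1151 to 13222 bp. Isolated genes with 1 peak had a median of 2049 bp and those with 2 peaks 2968 bp. The strongest peak of a fragmented promoter had a median fold enrichment of 26.7 (24.9 to 28.9), beside 29.4 at genes with 1 peak, and the weakest peak had 3.25. Strength was thus divided unequally: the median ratio of strongest to weakest was 7.27. At genes with 2 peaks, where the weakest is taken from fewer peaks, it was 5.10. At the threshold, the genes with 3 peaks and the largest summed width were Klf9 with 11314 bp, Igf2bp3 with 10529 bp, Dlx2 with 10443 bp and Ptch1 with 10436 bp. Just outside, with 2 peaks, were Tnrc18 with 11343 bp, Nkx6-1 with 10837 bp and Zfp503 with 10576 bp. These are the widest of each side. Over all genes the median summed width was 2968 bp with 2 peaks and 4165 bp with 3.

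The peaks of a fragmented promoter differed in kind by their order of strength. A total of 1453 peaks were assigned to the 434 genes. The strongest peak had a median width of 2523.5 bp and covered an annotated start of its own gene in 374 of 434 cases. The second had a median width of 986 bp and a fold enrichment of 6.26, the third 587 bp and 3.58, and the fourth and weaker 505 bp and 3.16. Among all peaks, 911 (62.7%) covered no annotated transcript start of any gene. By place, 394 peaks crossed the 5' end, 498 lay upstream, 257 lay within the gene and touched an exon, 271 lay within introns only and 33 lay past the 3' end. Intron-only peaks were weak and narrow, with a median fold enrichment of 3.49 and a width of 550 bp, beside 25.9 and 2583.5 bp for those across the 5' end. At 64 promoters (14.7%) 2 or more peaks each covered a start of the gene, and at 149 (34.3%) a transcript of a non-coding gene also began in the window. Starts were counted in this way at fragmented promoters only. Whether these shares differ from those of other isolated genes is therefore unknown. Peaks that ran past the window edge numbered 226, and 304 of the 434 genes had 3 or more peaks wholly inside it.

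A large share of the fragmented promoters belonged to transcription factors that direct embryonic development. Of the 434 genes, 107 (24.7%, 20.8 to 28.9) were on a list of developmental transcription factors by gene symbol, beside 2.32% of all isolated genes and 3.39% of those with a peak. The same share was 1.54% (1.28 to 1.86) at genes with 1 peak and 6.05% (4.91 to 7.43) at genes with 2. It was 15.8% with 3 peaks, 46.7% with 4 and 53.6% with 5 or more. Of the 5 genes with 6 peaks, 4 were on the list. The intervals of 1, 2, 3 and 4 peaks do not overlap, while those of 4 and of 5 or more do.

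A wide mark alone was also linked to this list, so genes were compared within ranges of summed width. The ranges are broad and the top one has no upper limit, so width was matched only roughly. Above 6500 bp, the list held 10 of 43 genes with 1 peak (23.3%, 13.2 to 37.7), 27 of 62 with 2 peaks (43.5%, 31.9 to 55.9) and 57 of 98 with 3 or more (58.2%, 48.3 to 67.4). Between 5000 and 6500 bp the shares were 8.06%, 14.05% and 34.5%, and between 4000 and 5000 bp they were 6.39%, 5.38% and 15.4%. Below 4000 bp the share did not rise from 2 peaks to 3 or more: between 3000 and 4000 bp it was 1.68% with 1 peak, 6.94% with 2 and 6.02% with 3 or more, and between 2000 and 3000 bp it was 1.50%, 1.62% and 1.72%. The 244 isolated genes with a single peak of at least the fragmented promoters' median summed width had a share of 10.2% (7.04 to 14.7).

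**Figure D2:**
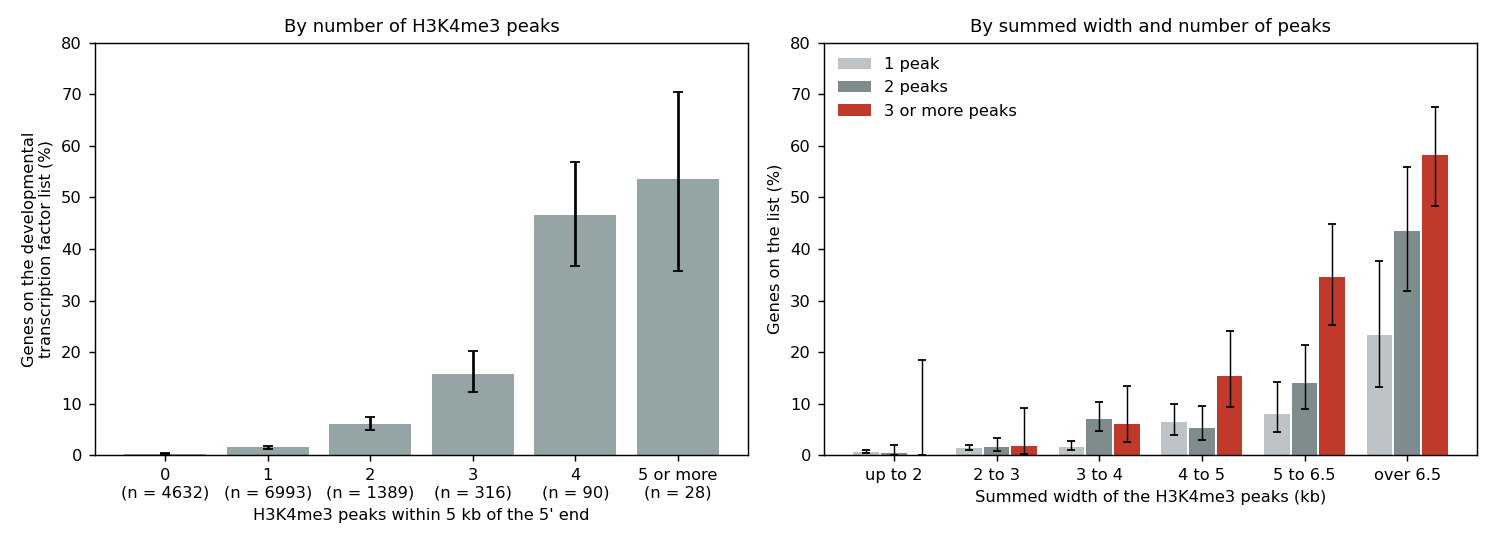
Percent of isolated genes on the developmental transcription factor list (vertical axes) by number of H3K4me3 peaks (left) and by summed width in kb with 1, 2 and 3 or more peaks (right); bars are shares and lines 95% Wilson intervals. The share climbs from 1.54% at 1 peak to 46.7% at 4, and above 6500 bp from 23.3% at 1 peak to 58.2% at 3 or more.

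Homeobox genes outside the Hox clusters were the largest family. They encode factors that specify regions and cell types of the embryo, and 51 of 116 with a peak (44.0%, 35.3 to 53.0) were fragmented, beside 4.92% of all marked isolated genes. Otx1, a forebrain regulator, had the largest summed width of all 434 genes, 13222 bp in 4 peaks with fold enrichments of 11.2, 2.83, 23.6 and 12.1. Barhl2, active in retina and spinal cord, had 11321 bp in 5 peaks. Its enrichment was 32.0 at the 5' end and 7.81 in a peak of 4502 bp that ended at -4791 bp, counted from the 5' end along the gene. Among isolated Hox genes with a peak, which are only 8 because of the spacing of the clusters, 4 were fragmented: Hoxc12, Hoxb13, Hoxa13 and Hoxc11. The strongest peaks of these 4 were 8.11, 11.9, 14.8 and 9.12, all below the median of 26.7.

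Other factor families followed on smaller numbers, beside 4.92% of all marked isolated genes. T-box genes were fragmented in 7 of 12 cases (32.0% to 80.7%) and Pax genes in 5 of 9 (26.7% to 81.1%). Developmental bHLH genes gave 12 of 42 (17.2% to 43.6%), and developmental zinc finger and other factors 17 of 61 (18.2% to 40.2%). Forkhead genes gave 7 of 33 (10.7% to 37.8%) and Sox genes 3 of 14 (7.57% to 47.6%). GATA genes gave 1 of 4, with an interval of 4.56% to 69.9% that includes the 4.92%. T, the Brachyury gene of primitive streak mesoderm, had 3 peaks with fold enrichments of 4.18, 2.76 and 20.1, the last a peak of 4649 bp across the 5' end. Tbx3, used in stem cell self-renewal and limb patterning, had 1 peak of 7846 bp and a pair of narrow upstream peaks of 394 and 329 bp. Foxd3, a factor of pluripotent cells and neural crest, had 5 peaks with values of 14.1, 6.65, 22.3, 5.54 and 4.86. Foxc1, a mesoderm and eye regulator, had 10650 bp in 4 peaks and 7 ATAC-seq peaks in the window. Pax6, which directs eye and forebrain formation, covered 10391 bp with 3 peaks, each over a start of the gene. Gata2, a blood stem cell factor, had 3 peaks of similar strength, the strongest 18.2 and the weakest 12.5.

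Signalling genes of development were fragmented less often than the factors, in 12 of 162 cases (7.41%, 4.29 to 12.5), beside 107 of 299 (35.8%, 30.6 to 41.4) for the factors. The 4.92% of all marked isolated genes lies within the interval of the signalling genes. Wnt ligands and receptors gave 5 of 38 (5.75% to 27.3%), namely Wnt5a, Fzd7, Wnt10b, Lgr4 and Wnt8a. The BMP and TGF-beta pathway gave 3 of 41 (2.52% to 19.4%), namely Nodal, Smad6 and Lefty2. FGF genes gave 0 of 15, for which the Wilson bound is 20.4%. Nodal, the ligand that patterns the early embryo, had 5 peaks with fold enrichments of 3.25, 4.31, 7.81, 40.02 and 3.29. Lefty2, its secreted antagonist, had 2 peaks of 4.09 and 4.54 more than 3 kb upstream of its 5' end and a main peak of 15.1 across it. Both of its gaps overlapped an ATAC-seq peak. Ptch1, the Hedgehog receptor, had its strongest peak (52.8) centred 7890 bp inside the annotated gene.

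Of the pluripotency list, 3 of 26 marked genes were fragmented: Pou5f1, Tbx3 and Dppa5a. Pou5f1, as a homeobox gene, and Tbx3 are also counted among the 107 developmental factors. Pou5f1 encodes OCT4, and its 3 peaks had fold enrichments of 3.42, 5.50 and 35.1, the last running from -1041 to 4036 bp around the 5' end. Each of the 3 overlapped an ATAC-seq peak, as did both gaps. Dppa5a, a small RNA-binding protein of stem cells, had a main peak of 9.74 and 2 weak peaks past its 3' end. Of the chromatin regulators 4 of 62 were fragmented (6.45%, 2.54 to 15.4), among them the Polycomb subunits Phc1 and Cbx8, with 5 peaks each, and the H3K4 demethylase Kdm5b with 4. Neuronal membrane proteins gave 3 of 194 (1.55%, 0.527 to 4.45), with 0 of 63 potassium channels and 0 of 64 neurotransmitter receptors. Housekeeping sets gave 0 of 26 cytosolic ribosomal proteins, 0 of 22 proteasome subunits and 2 of 22 oxidative phosphorylation genes (Atp5g2 and Sdhb). Their upper Wilson bounds were 12.9%, 14.9% and 27.8%. The 4.92% of all marked genes lies within the intervals of the pluripotency, chromatin and housekeeping sets, and above that of the neuronal membrane proteins. Zfp zinc finger genes (10 of 262, 3.82%) and solute carriers (9 of 193, 4.66%) were also close to it. Genes on none of the 27 lists contributed 286 of the 434 promoters, which was 3.80% of the 7528 such genes with a peak.

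Developmental factors and the other fragmented promoters differed in width and strength. The 107 factors had a median summed width of 6564 bp (6279 to 7499) and the 327 other genes 4126 bp (3928 to 4357). The median number of peaks, which adds to summed width, was 4 at the factors and 3 at the others. The strongest peak of the factors was weaker, with a median fold enrichment of 18.3 (16.04 to 19.8) beside 33.0 (30.4 to 35.3). A strongest peak above 30 was found at 5 of the 107 factors and at 185 of the 327 other genes. The weakest peaks were low in both sets, with medians of 3.24 and 3.25. The ratio of strongest to weakest, 4.97 for factors and 8.97 for the rest, therefore follows the strongest peak. The difference in strength held among promoters of at most 5000 bp, where the medians were 15.1 for 20 factors and 30.2 for 229 other genes. It was not limited to fragmented promoters. Factors with 1 peak had a median of 20.3 and other genes with 1 peak 29.5, and with 2 peaks the values were 18.1 and 31.7. Nor was the difference in summed width. Its medians were 2837.5 bp at factors and 2041 bp at other genes with 1 peak, and 5166 and 2910 bp with 2 peaks.

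**Figure D3:**
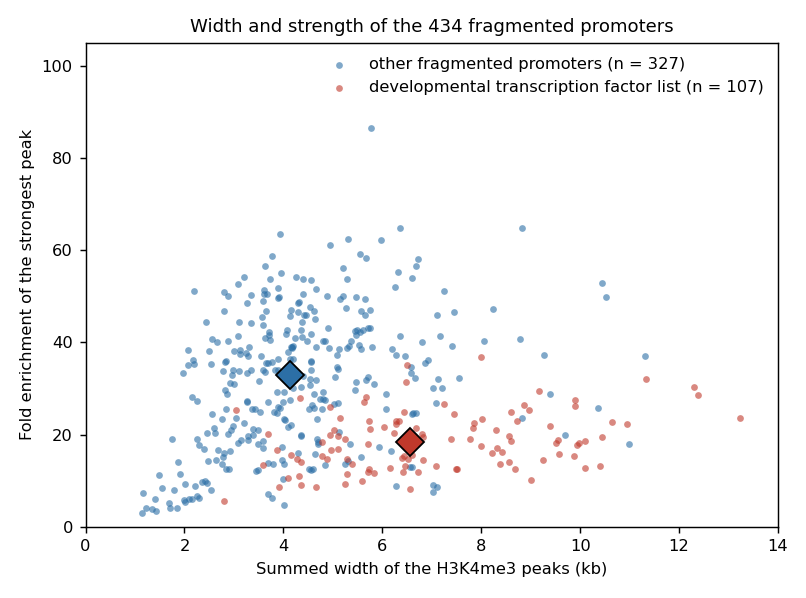
Fold enrichment of the strongest H3K4me3 peak (vertical axis) against the summed width of the peaks in kb (horizontal axis) for each fragmented promoter; diamonds mark the medians of the 107 developmental factors (red) and the 327 other genes (blue). The factors lie to the right and lower, at a median of 6564 bp and 18.3, and the other genes at 4126 bp and 33.0.

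The strongest peaks lay at genes of other kinds. Rbm39, an RNA-binding splicing factor, had the strongest peak, 86.6, with neighbours of 21.1 and 2.83. The gap of 109 bp between its first and second peak was centred at -134 bp from the 5' end. It lay inside a wider ATAC-seq peak, from -596 to 458 bp. Hsp90aa1, a heat shock chaperone, had a strongest peak of 64.8 that lay 4865 to 9782 bp downstream of the annotated 5' end, over a later start, and 4 weaker peaks of 8.68, 3.31, 4.42 and 4.53 upstream of it. Adgrl1, Akirin2, Hnrnpa3, Xpo1, Actn4 and Gpbp1 completed the 8 strongest, from 64.8 down to 59.1, and none of the 8 was on the developmental list. The most unequal were Rbm39, Actn4, Adgrl1 and Akirin2, with ratios of strongest to weakest from 23.01 to 30.6.

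At the weak end lay genes whose strongest peak did not exceed 4.09. Sh3rf2, Cyp2d9, Trim63, Tmem119 and Sh2d4b had strongest peaks of 3.06, 3.44, 3.90, 3.99 and 4.09. Cyp2d9, a cytochrome P450 enzyme, had 3 peaks of 518, 362 and 540 bp, all upstream between -4992 and -2369 bp from the 5' end, and was the only fragmented promoter with no ATAC-seq peak in the window. No annotated start of the gene lay in any peak at 16 of the 434 genes, Cyp2d9, Sh3rf2, Tmem119, Gm572 and Oas1g among them. Sh3rf2 nevertheless had 7 ATAC-seq peaks in its window, and 2 of its 3 H3K4me3 peaks held one.

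Open chromatin, which the rule did not use, was present at nearly all these starts. An ATAC-seq peak lay within 500 bp of the 5' end at 411 of 434 fragmented promoters (94.7%, 92.2 to 96.4), beside 93.8% of all isolated genes with an H3K4me3 peak. Likewise an H3K4me3 peak crossed the 5' end at 394 (90.8%), beside 89.9%. Neither share departs from its background. The window held a median of 3 ATAC-seq peaks, from 0 at Cyp2d9 to 8 at AU018091, and 2 at genes with 1 or with 2 H3K4me3 peaks. Among those with 7 were Pax3, Ebf3, Foxc1, Hsp90aa1, Wnt10b and Sh3rf2. Further genes tied at 7 are not named, some of them on none of the gene lists. Within ranges of summed width the picture depended on the width. Above 6500 bp the mean number of ATAC-seq peaks was 3.93 with 1 H3K4me3 peak, 4.21 with 2 and 3.90 with 3 or more, and between 5000 and 6500 bp it was 3.31, 3.24 and 3.25. Between 4000 and 5000 bp the means were 2.69, 2.66 and 2.85. At smaller widths the number rose with the number of H3K4me3 peaks, with means of 2.00, 2.57 and 2.92 between 3000 and 4000 bp, 1.72, 2.19 and 2.91 between 2000 and 3000 bp, and 1.72, 2.32 and 3.06 up to 2000 bp.

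Inside the promoters, ATAC-seq peaks were concentrated in the strong H3K4me3 peaks. They were found in 98.6% (97.0 to 99.4) of the strongest peaks, 75.1% of the second, 50.0% of the third and 29.1% (22.5 to 36.8) of the fourth and weaker. Over all 1453 peaks the share was 69.9%, beside 87% of all H3K4me3 peaks on these chromosomes. At 127 genes every H3K4me3 peak held an ATAC-seq peak, and at 64 only 1 did. Neither number was compared with other isolated genes. Pax3 had them in 4 of its 6 peaks, Tfap2a in 3 of 6 and Cbx8 in 3 of 5. Narrow peaks have less room for an ATAC-seq peak, and the part of width in this order was not tested.

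The gaps between neighbouring H3K4me3 peaks numbered 1019 and had a median width of 393 bp, from 51 to 5275 bp. An ATAC-seq peak overlapped 334 of them (32.8%, 30.0 to 35.7), beside 49% of the gaps at isolated genes with 2 peaks. The share was much lower at developmental factors, with 31 of 290 gaps (10.7%, 7.63 to 14.8), than at the other fragmented promoters, with 303 of 729 (41.6%, 38.04 to 45.2). It was lower in every range of gap width. For gaps of up to 150 bp it was 12.7% (6.30 to 24.0) against 51.1% (43.9 to 58.2), and for gaps over 500 and up to 1000 bp 5.36% against 27.2%. The intervals overlapped only between 1000 and 2000 bp, at 20.5% against 30.3%. None of the 5 gaps of Tfap2a or of the 5 of Hoxc12 and none of the 3 gaps of Otx1 held an ATAC-seq peak, whereas 3 of 5 gaps of Eml2 and 3 of 4 of Hsp90aa1 did.

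**Figure D4:**
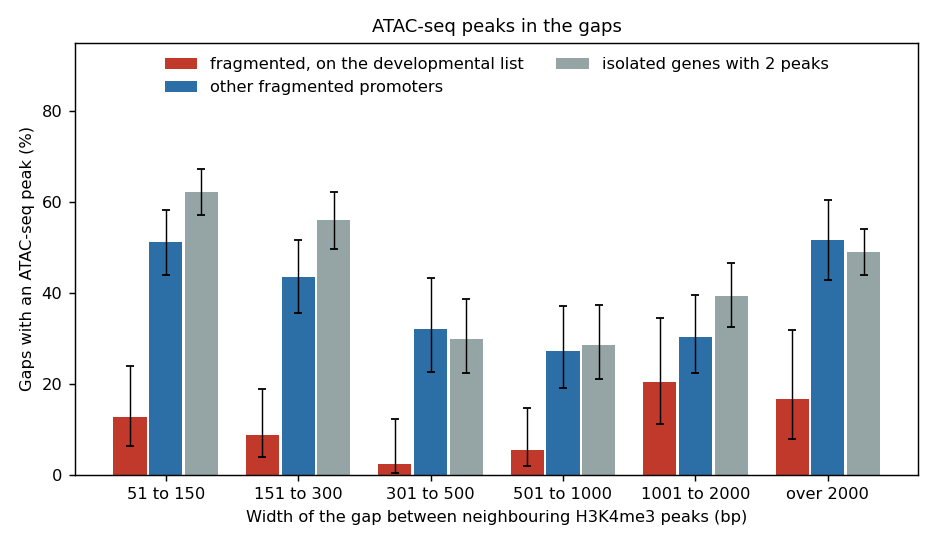
Percent of gaps with an overlapping ATAC-seq peak (vertical axis) by gap width in bp (horizontal axis), for fragmented developmental factors (red), other fragmented promoters (blue) and isolated genes with 2 peaks (grey); lines are 95% Wilson intervals. The red bars are the lowest in all 6 ranges, at 2.38% to 20.5%, while the blue bars run from 27.2% to 51.6%.

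Part of the open gaps lay at the start itself. Of 106 gaps centred within 500 bp of the 5' end, 88 (83.0%, 74.7 to 89.0) overlapped one, and 91 were centred upstream of it. These were narrow, with a median width of 134 bp, and 98 of the 106 belonged to genes that were not developmental factors. Gpbp1, a GC-rich promoter binding protein, is an example, with a gap of 197 bp around the 5' end and strong peaks on both sides. Its ATAC-seq peak, from -600 to 718 bp, spanned the gap and ran into both of these peaks. Among the 913 gaps farther away the share was 26.9%, and the difference between factors and the rest remained, at 10.3% (7.26 to 14.4) of 282 against 34.4% (30.8 to 38.2) of 631.

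Sequence set the peaks apart from the gaps. The observed over expected number of CG, which corrects for base composition and is near 1 where CG is not depleted, had a median over promoters of 0.548 (0.535 to 0.562) in the peaks, 0.250 (0.238 to 0.262) in the gaps and 0.197 (0.190 to 0.204) in the rest of the window. Peaks were above gaps at 399 of 434 genes, at 107 of 107 factors and at 292 of 327 others. The gaps thus lay near the level of unmarked DNA beside the promoter, though above it at 268 of 408 genes with such DNA in the window. Factors had more CG in their peaks than the others, with 0.594 (0.574 to 0.617) against 0.524 (0.505 to 0.538), and their gaps were similar at 0.262 and 0.242. Isolated genes with 2 peaks had nearly the same medians, with 0.566 in the peaks, 0.254 in the gap and 0.197 in the rest of the window. The contrast was thus not particular to fragmented promoters. All peaks of a gene were pooled, so the widest weighs most, and weak peaks were not compared with the gaps on their own. A single wide peak had 0.637 (0.617 to 0.651), higher than the peaks of fragmented promoters. Foxd3 and Sox1, both at 0.77, were examples with CG-rich peaks, beside 0.45 and 0.23 in their gaps. Exceptions went the other way, such as Hnrnpa3, with 0.65 in the peaks and 1.32 in 2 narrow gaps of 220 and 155 bp.

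**Figure D5:**
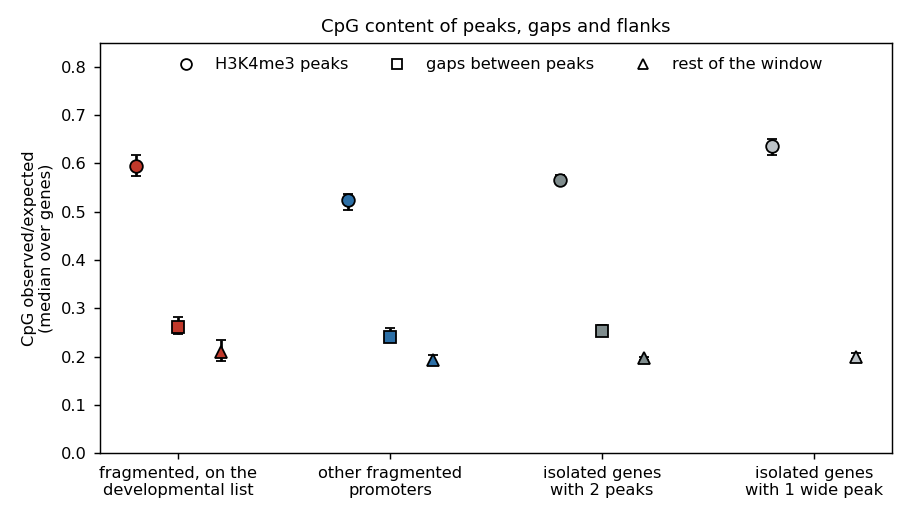
Median CpG observed/expected over genes (vertical axis) in H3K4me3 peaks (circles), gaps between them (squares) and the rest of the window (triangles) for 4 sets of isolated genes; lines are 95% order-statistic intervals. In each set with gaps they lie below 0.3, close to the rest of the window and under the peaks, which are at 0.524 to 0.637.

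Repeats were also unequally placed. Bases masked as repeats made up a median of 12.6% of the peaks, 23.8% of the gaps and 28.9% of the rest of the window, and exceeded the peaks' share in the gaps of 349 of 434 promoters. Isolated genes with 2 peaks also had more repeats in the gap, with medians of 12.3% in the peaks and 19.8% in the gap. This contrast was thus not particular to fragmented promoters. Their gap median was somewhat higher, at 23.8% (22.4 to 26.1) against 19.8% (18.4 to 21.5). Among fragmented promoters the gaps of the factors held 16.8% and those of the other genes 27.2%. The narrow gaps, of at most 300 bp, of the other genes were of unlike kinds. With an ATAC-seq peak (158 gaps) they had a median GC content of 58.7% and a median repeat share of 0%. Without one (173 gaps) GC was 44.2% and the repeat share 38.9%, and in 74 of them (42.8%) repeats made up at least 50% of the bases. Nodal has a gap of 157 bp that is wholly repeat and without an ATAC-seq peak. Next to it is a gap of 145 bp with no repeat base and an overlapping ATAC-seq peak. Phc1 had 64.1% repeats over its 4 gaps. Reads map less surely to repeats, and the part of mapping in the gaps was not tested. No gap held unknown bases.

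How the peaks are counted sets how many promoters are called fragmented. When peaks under 500 bp apart were joined first, 117 genes kept 3 or more, and 40 of them (34.2%) were developmental factors. When any annotated gene within 10 kb, coding or not, disqualified a promoter, 244 remained and the factors' share fell to 16.4% (12.3 to 21.6), beside 1.33% at genes with 1 peak. Under all these choices the factors' strongest peak stayed the weaker and their summed width the larger.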

How the data were processed

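The ENCODE pipeline for histone ChIP-seq, run by the authors at default settings on mm10, gave the H3K4me3 list. Its aligner and peak threshold are not given in the sources used here. Each deposited peak has positions, a display score, a fold enrichment (a ratio over background), and a −log10 q value. The ATAC-seq list, deposited as positions only, came from Bowtie 1.1.2, SAMtools, shifted read ends, MACS2 2.1.1.20160309 and bedtools 2.27.1, and kept pooled peaks found in both replicates. From these, gene 5' ends (the most upstream transcript start, GENCODE M21), overlaps of 1 bp or more, gaps and base composition (GRCm38 genome) were computed in Python 3.11.15 with pysam 0.24.0, pandas 2.3.3, numpy 2.4.6 and scipy 1.17.1. Counts were checked with bedtools 2.31.1 and tested on simulated data. Whole peaks entered summed widths, also where they ran past the window. A gap is a stretch with no called peak, and signal inside it was not measured.

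The members, gene lists and comparisons were chosen with earlier results of these data known. Genes named were those with the most peaks, the extremes of width, strength, unevenness and ATAC-seq peaks, up to 6 of each list by summed width, and the neighbours of the threshold. Cases cited for their gaps or sequence were picked from these after their values were seen. Results of a few genes that this rule names are not reported here. PLAC-seq and input samples were not analysed here.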

Additional observations from a re-analysis of the deposited data

How the results depend on the processing

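The lists hold no read counts, so depth limits every count of peaks to an unknown extent. No paired analysis was possible because 1 list stands for both replicates of each assay, and for the same reason leaving out each replicate was not possible. Of 54 values under alternatives, 31 stayed within the interval of the reported value, or within 1.5 times for a count of promoters, and 23 did not. The number of fragmented promoters was 117 with peaks under 500 bp apart joined, 114 with a window of 2.5 kb and 244 with isolation from any annotated gene. The developmental share was 34.2% with joining and 16.4% with the wider isolation. Median summed width was 4946 bp with joining, 3698 bp in the 2.5 kb window and 4341 bp with the wider isolation. An ATAC-seq peak lay at the 5' end of 91.5% with joining, 98.2% in the 2.5 kb window, 89.4% with the widest 50% of ATAC-seq peaks and 88.0% where 50% of an ATAC-seq peak had to fall within 500 bp. The median number of ATAC-seq peaks was 2 in the 2.5 kb window and 2 with the widest 50%. Gaps held an ATAC-seq peak in 36.4% when only H3K4me3 peaks with −log10 q from 5 up were used, 27% with joining, 37.7% in the 2.5 kb window, 23.7% with the widest 50% and 11.7% with 50% inside, where factors had 3.79% and others 14.8%. CpG observed/expected of the peaks was 0.527 with joining and 0.522 in the 2.5 kb window, and that of the gaps 0.226 and 0.330. In all these settings gaps of factors held ATAC-seq peaks less often than gaps of other genes.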

Other observations

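The X chromosome was outside the rule. Of its 762 isolated protein-coding genes, 385 had an H3K4me3 peak in the window and 18 had 3 or more. Among these 18 were Sox3 and Esx1, which encode developmental transcription factors, and Kdm5c, Ogt and Taf1, which act in chromatin and transcription in most cells. They were named after their values were seen. On the other chromosomes the share of marked isolated genes that were fragmented ran from 2.62% on chromosome 16 to 6.27% on chromosome 9.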
